A study of Mus musculus with 23 samples.

Results

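The genes described here encode the extracellular matrix: every collagen chain gene (Col, a number, a, a number) and laminin chain gene (Lama, Lamb, Lamc) on the array, together with Fbn2, Fbln1, Fbln2, Fbln5, Mgp, Dcn, Lum, Sparc, Nid1, Nid2, Fn1 and Eln. They number 66 of the 19661 genes that the array's probe annotation names singly. They were chosen by symbol and not by their values, and where a gene had several probe sets the one with the highest mean over all arrays stood for it. A filter on dim signal, which removed the lowest 25% of genes by mean (below a log2 value of 5.12), left 63 of the 66; Col10a1, Col12a1 and Lum fell under it. Of the 63 tested genes, 18 belong to basement membranes (the chains of collagen IV, the laminins and the nidogens) and 11 encode chains of fibrillar collagens. The rest are fibril-associated collagens (8), collagens of beaded filaments and short-chain networks (8), multiplexins (2), transmembrane collagens (4), other collagens (3), elastic fibre genes (5) and proteoglycan or soluble matrix genes (4).

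RNA came from testes of mice aged 14.5 days, each sample a pool of 4 testes from which the tunica had been removed and spermatogenic cells isolated, and was hybridised to Affymetrix Mouse Gene 1.0 ST arrays. The 7 genotypes were the inbred strains PWD (3 arrays) and B6 (3 arrays), their reciprocal hybrids PWDxB6 (3 arrays) and B6xPWD (3 arrays), the F1 PWDxPWK (2 arrays), and the reciprocal F1s B6xBALB/C (6 arrays) and BALB/CxB6 (3 arrays). PWD and PWK are wild-derived strains of Mus musculus musculus, whereas B6 and BALB/C are laboratory strains of mainly Mus musculus domesticus origin, so PWDxB6 and B6xPWD cross subspecies and the other F1s do not. By mouse convention the female is named first, and males from a PWD mother and a B6 father are known to be sterile. The labels name no allele, transgene or treatment in any group. They do not say that pools of a genotype came from separate litters, so the p-values below measure the spread between these pools. The submitters excluded 1 further PWDxPWK sample as an outlier.

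Basement membranes are sheets built from a laminin network and a collagen IV network, linked by nidogens, perlecan and other proteins. In the seminiferous tubule such a sheet lies under the Sertoli cells and spermatogonia, and it is made jointly by Sertoli cells and the surrounding peritubular myoid cells. Fibrillar collagens such as types I, III and V form the fibres of the stroma between tubules and are made chiefly by fibroblast-like cells, while fibrillin, fibulins and elastin form elastic fibres. Germ cells themselves are not known as main producers of either kind of matrix.

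Promoter sequence was read for genes whose arrays are described in detail below. It comes from the reference strain alone, so no difference between strains or between reciprocal crosses can be read from it. RefSeq windows on GRCm38.p6, the C57BL/6J reference, run from 250 bases before a gene's start to 50 after it. At least 1 such window was found for 45 of the 66 genes (51 windows in all). Capitals mark GC boxes (GGGCGG, or CCGCCC on the other strand) and CCAAT boxes (CCAAT, or ATTGG on the other strand). Only the bases outside annotated protein-coding genes are printed, 5′ to 3′ on the gene's own strand. Lama5 (chr2:180225905-180226109, minus strand) and Col5a1 (chr2:27886175-27886380, plus strand) are shown because they were higher on every array of PWD and PWDxPWK than on any array of B6 and the BALB/C F1s.
Lama5: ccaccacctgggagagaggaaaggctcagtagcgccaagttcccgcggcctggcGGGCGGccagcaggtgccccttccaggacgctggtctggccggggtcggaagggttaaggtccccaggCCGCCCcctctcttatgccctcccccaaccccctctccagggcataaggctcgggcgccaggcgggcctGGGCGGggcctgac
Col5a1: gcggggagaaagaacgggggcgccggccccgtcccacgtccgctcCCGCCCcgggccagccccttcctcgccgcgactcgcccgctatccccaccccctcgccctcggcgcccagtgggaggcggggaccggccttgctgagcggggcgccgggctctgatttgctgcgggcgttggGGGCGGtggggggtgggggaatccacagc
Sparc (chr11:55420081-55420330, minus strand) was lower in PWD than in B6, and Col6a2 (chr10:76623631-76623880, minus strand) differed between the reciprocal hybrids.
Sparc: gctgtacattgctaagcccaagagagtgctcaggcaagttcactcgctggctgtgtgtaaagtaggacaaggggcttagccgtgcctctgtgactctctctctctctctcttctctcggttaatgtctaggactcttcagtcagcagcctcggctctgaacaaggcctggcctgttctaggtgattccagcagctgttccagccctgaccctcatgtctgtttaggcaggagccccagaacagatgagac
Col6a2: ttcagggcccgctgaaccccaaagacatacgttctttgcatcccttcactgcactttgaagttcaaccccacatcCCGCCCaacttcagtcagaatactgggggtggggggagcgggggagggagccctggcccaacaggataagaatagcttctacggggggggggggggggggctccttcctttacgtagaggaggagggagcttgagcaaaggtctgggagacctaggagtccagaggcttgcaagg
Col4a5 (chrX:141475169-141475369, plus strand) and Col4a6 (chrX:141474096-141474326, minus strand) are X-linked neighbours read away from each other, their starts 1343 bases apart; Col4a6 is shown for its difference between the reciprocal BALB/C F1s.
Col4a5: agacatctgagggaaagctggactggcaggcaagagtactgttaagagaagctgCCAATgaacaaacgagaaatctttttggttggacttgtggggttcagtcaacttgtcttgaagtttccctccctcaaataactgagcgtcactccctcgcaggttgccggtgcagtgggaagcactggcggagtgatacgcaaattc
Col4a6: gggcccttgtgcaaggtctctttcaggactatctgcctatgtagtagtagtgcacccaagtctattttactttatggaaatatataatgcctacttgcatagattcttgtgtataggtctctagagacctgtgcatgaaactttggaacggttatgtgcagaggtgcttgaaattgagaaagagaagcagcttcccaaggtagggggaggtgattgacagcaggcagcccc
The printed stretch of Lama5 holds 3 GC boxes, that of Col5a1 holds 2, that of Col6a2 holds 1 and that of Col4a5 holds 1 CCAAT box, while neither motif was found in those of Sparc and Col4a6. A GC box was present in 58.8% of the members' windows, in 8 of the 12 windows of basement membrane genes and in 6 of the 8 of fibrillar genes, against 35.7% of all 32851 windows. The CCAAT box was present in 31.4% of the members' windows against 37.4% of all windows, and TATAAA (or TTTATA) in 9.8% against 13.6%. Col4a1 and Col4a2, the pair that encodes the main collagen IV network, are also read away from each other, from starts so close that the transcripts overlap at their 5′ ends.

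The signal on the arrays is on a log2 scale, and array medians lay between 6.13 and 6.28. The preparations held RNA of germ cells and of somatic cells. Ddx4, which marks germ cells, lay between 9.85 and 11.20 over the 23 arrays, Acta2, an actin of peritubular myoid cells, between 11.39 and 11.91, and Sox9, a Sertoli cell factor, between 8.87 and 9.62. Cyp17a1 of Leydig cells ranged from 4.87 to 6.94, Pecam1 of endothelium from 5.46 to 6.39 and Csf1r of macrophages from 5.12 to 6.15. In such bulk samples, fewer cells of a type and less RNA per cell cannot be told apart.

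A test of any difference among the 7 genotypes (limma's F test with Benjamini-Hochberg adjustment over 14745 genes, threshold 0.05) passed 27 of the 63 matrix genes, beside 33.8% of all genes. It passed 11 of the 18 basement membrane genes and 2 of the 11 fibrillar collagens. Among the other classes it passed 3 of 8 fibril-associated collagens, 3 of 8 beaded and short-chain collagens, 2 of 5 elastic fibre genes and 3 of 4 proteoglycan or soluble matrix genes. Of the 63 genes, 24 had their highest genotype mean in PWD and 24 in B6, and 32 had their lowest in B6xPWD. The same counts were not made over all genes. By another measure, a B6xPWD mean below both parental means was found for 54 of the 63 genes and for 37.9% of all genes.

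**Figure D1:**
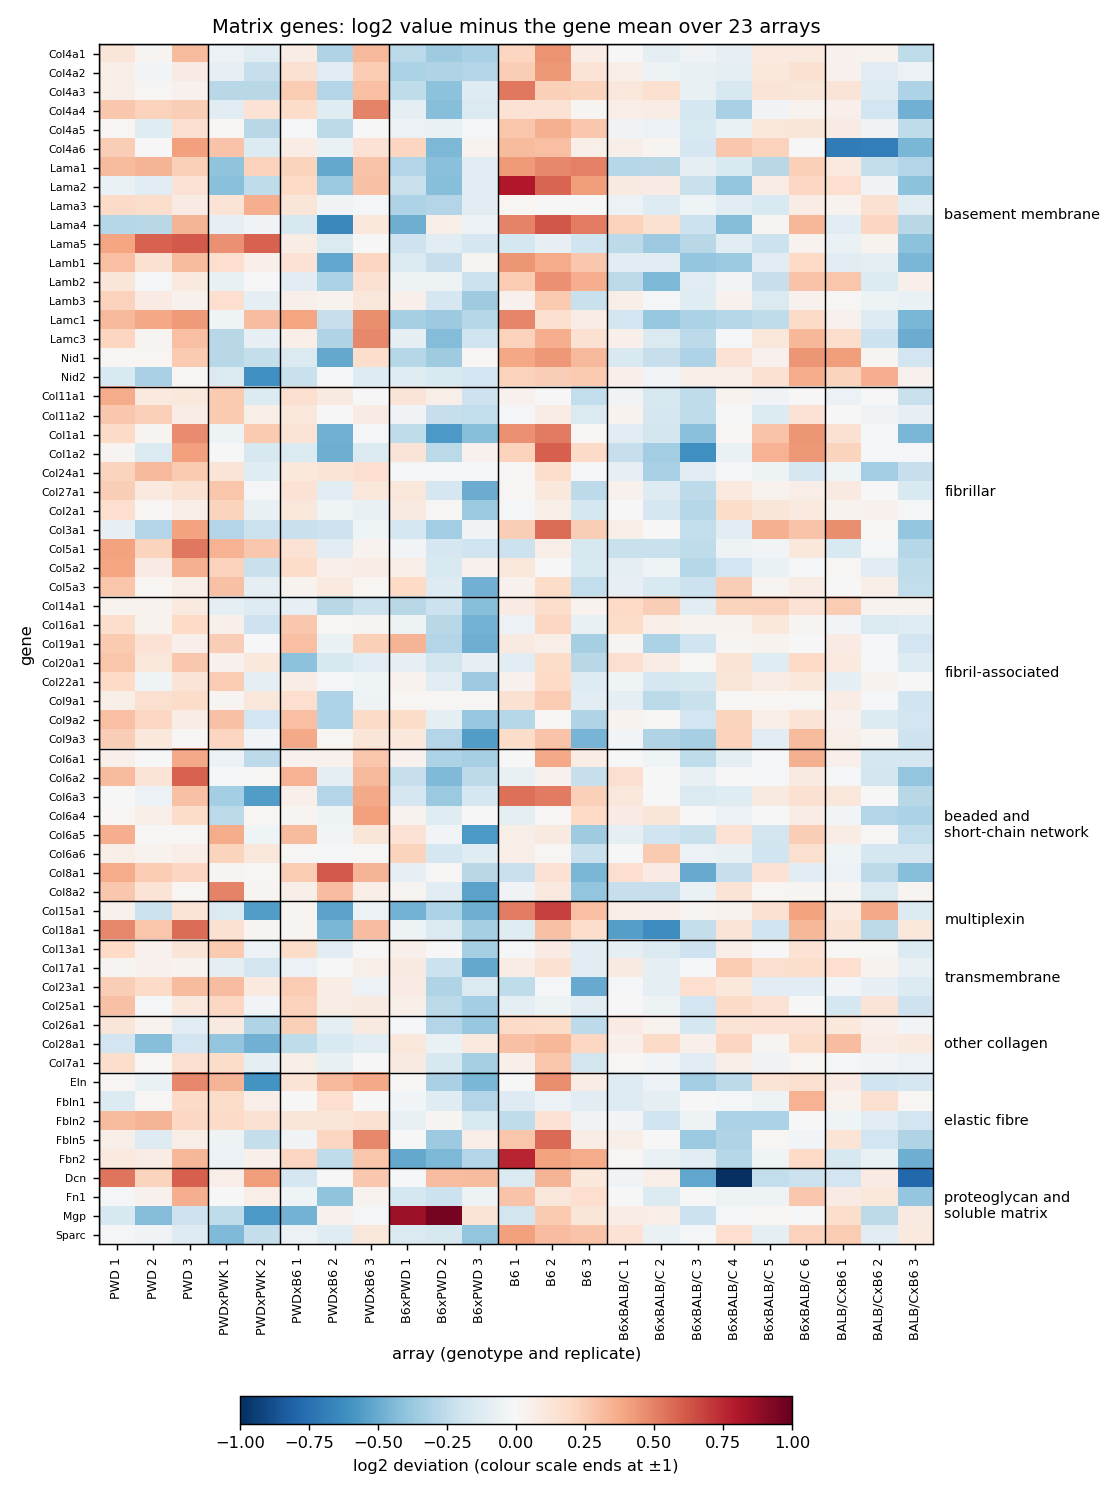
Heat map of the 63 tested matrix genes (rows, by class) on the 23 arrays (columns, by genotype), coloured by each gene's log2 deviation from its mean over all arrays. The B6xPWD columns are mostly below the mean in the basement membrane rows, with Mgp the opposite.

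In the B6xPWD hybrid most matrix genes lay below the level of the parents. The other F1s also averaged below both inbred strains for basement membrane genes, as given with the class averages below. Its mean was compared with the mid-parent value, the average of the PWD and B6 means, the level halfway between the strains on the log2 scale. Of the 63 genes, 20 differed (limma, adjusted p under 0.05), 19 of them lower and 1, Mgp, higher, beside 14.5% of all genes called in that comparison, 6.69% lower and 7.79% higher. The difference was below 0 for 61 of the 63 genes, with a median of −0.25, while the median over all genes was −0.03 and 44.9% of all genes were above 0. Centring every array on its median autosomal gene moved the call split over all genes to 9.3% higher and 4.18% lower, and 16 matrix genes were then lower and 1 higher.

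Basement membrane genes held 11 of the 19 lower calls. All 18 were below the mid-parent value, with a median difference of −0.41, and 11 of the 18 passed the test. All 11 fibrillar collagens were also below it, with a median of −0.25, but Col1a1 alone of them passed. The difference in calls between these classes was not itself tested. The classes also differed in signal level. The fibrillar genes Col2a1, Col5a2, Col5a3, Col11a1, Col11a2, Col24a1 and Col27a1 averaged 5.97 to 6.94 over all arrays, near the array medians. Among basement membrane genes, Col4a5, Col4a6, Lama3, Lama4 and Lamb3 averaged 5.55 to 6.76 and the others were higher. The part of signal level in the class difference was not tested. Of the 18 basement membrane genes, 17 had a B6xPWD mean below both parental means, and for 10 of the 18 every B6xPWD array lay below every parental array. The same held for 10 and 2 of the 11 fibrillar collagens, and for 37.9% and 6.81% of all genes.

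Collagen IV forms the covalent scaffold of the basement membrane, and 4 of its 6 chain genes fell in B6xPWD. For Col4a2 the B6xPWD arrays read 7.83, 7.84 and 7.85, against 8.12, 8.21 and 8.23 in PWD and 8.28, 8.39 and 8.58 in B6. The difference from mid-parent was −0.46 (SE 0.0895, adjusted p = 0.00349). All 3 B6xPWD arrays lay below every parental array and differed from each other by less than any parental group did. For Col4a1, its partner chain in the α1α1α2 trimer, the arrays read 7.70, 7.73 and 7.79 against 8.08 to 8.37 in PWD and 8.13 to 8.51 in B6, a difference of −0.52 (SE 0.112, adjusted p = 0.00654). Again the hybrid arrays did not overlap with the parental ones. Col4a3 and Col4a4, which pair with Col4a5 in the trimer of mature epithelial basement membranes, differed by −0.45 (adjusted p = 0.0192) and −0.39 (adjusted p = 0.0407). The X-linked chains Col4a5 and Col4a6 gave −0.21 (adjusted p = 0.136) and −0.29 (adjusted p = 0.136).

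The laminins are αβγ trimers that seed the sheet and bind cell receptors, and genes for all 3 kinds of chain fell in B6xPWD. Lamc1, the γ chain of most laminins, read 8.67, 8.71 and 8.75 in B6xPWD, against 9.36, 9.42 and 9.46 in PWD and 9.11, 9.19 and 9.52 in B6. The difference was −0.63 (SE 0.145, adjusted p = 0.00864), with no overlap of arrays. Arrays of B6xBALB/C and BALB/CxB6 also lay below all parental arrays for Lamc1, the lowest at 8.65 and 8.57. Lama1, whose α1 chain is found in the seminiferous tubule's basement membrane, read 8.46, 8.58 and 8.77 against 9.11 to 9.21 in PWD and 9.31 to 9.39 in B6. Its difference was −0.66 (SE 0.156, adjusted p = 0.0107), also with no overlap. Lama2, the α2 chain best known from muscle, differed by −0.55 (adjusted p = 0.0212), Lamb1 by −0.43 (adjusted p = 0.0425), Lamc3 by −0.46 (adjusted p = 0.0462), Lama5 by −0.35 (adjusted p = 0.0237) and Lama3 by −0.31 (adjusted p = 0.0164). The arrays of Lama2 and Lama5 overlapped with those of a parent and those of Lamb1, Lamc3 and Lama3 did not.

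Outside the basement membrane, the largest fall was that of Fbn2, a fibrillin that builds microfibrils in developing tissue. Its B6xPWD arrays read 7.46, 7.52 and 7.67, the PWD arrays 8.05, 8.07 and 8.30 and the B6 arrays 8.34, 8.37 and 8.73. The difference from mid-parent was −0.76 (SE 0.126, adjusted p = 0.00141), a 1.69-fold lower signal, and B6xPWD did not overlap with the parents. The lowest BALB/CxB6 array of Fbn2 (7.48) lay within the B6xPWD range. Col15a1, a multiplexin that sits at the outer face of basement membranes, read 6.22, 6.23 and 6.39 in B6xPWD, 6.50 to 6.85 in PWD and 7.01 to 7.39 in B6. It differed by −0.67 (SE 0.135, adjusted p = 0.00408). Col14a1, a collagen that decorates fibrils, read 5.73, 5.88 and 5.94 against 6.19 to 6.25 in PWD and 6.19 to 6.33 in B6, a difference of −0.38 (SE 0.0874, adjusted p = 0.00837). Neither overlapped with the parents. The PWDxB6 arrays of Col14a1 (6.07, 5.88 and 5.94) also lay below every parental array.

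Col1a1, the α1 chain of collagen I, read 9.05, 9.20 and 9.37 in B6xPWD, against 9.65, 9.81 and 10.09 in PWD and 9.64, 10.08 and 10.14 in B6. It differed by −0.70 (SE 0.176, adjusted p = 0.0136) without overlap. Col1a2, its partner chain, read 9.78, 10.10 and 10.18 in B6xPWD against 9.91 to 10.46 and 10.24 to 10.65, so its arrays overlapped and it did not pass. Col1a2 was lowest in PWDxB6, at 9.908, 9.563 and 9.910, the highest of these just under the lowest parental array (9.911). Its PWDxB6 difference from mid-parent, −0.48, did not pass either. Col6a3 and Col6a2, chains of the beaded filaments of collagen VI, differed by −0.49 (adjusted p = 0.0154) and −0.44 (adjusted p = 0.0134), the fibril-associated Col16a1 by −0.35 (adjusted p = 0.0216) and Sparc, a collagen-binding matricellular protein, by −0.37 (adjusted p = 0.0172).

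Mgp went the other way. It encodes matrix Gla protein, a secreted inhibitor of calcification. Its B6xPWD arrays read 8.20, 8.30 and 7.49, against 7.19, 6.91 and 7.14 in PWD and 7.16, 7.61 and 7.47 in B6. B6xPWD replicates 1 and 2 were above all parental arrays, and replicate 3 lay within the B6 range. The difference was 0.75 (SE 0.155, adjusted p = 0.00456).

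The count of members called in B6xPWD rested in large part on 1 array and on the weight given to arrays, since array weights raised it from 20 to 42. The count over all genes under array weights is not given here. Without B6xPWD replicate 2, 5 matrix genes were called, all lower, and 388 genes in all. These 5, Fbn2, Col15a1, Col14a1, Col4a1 and Col4a2, passed in every fit that left out 1 array and under every other alternative tried. The other 15, Mgp included (0.60, adjusted p = 0.059), missed the threshold without that replicate, with differences in the same direction. Lama3 and Lama5 missed it also without B6xPWD replicate 1 (adjusted p = 0.0633 and 0.0722), and Lama5, Col16a1 and Sparc without B6xPWD replicate 3 (adjusted p = 0.0562, 0.129 and 0.0868). Col4a4, Lamb1 and Lamc3 missed it in 8, 7 and 15 of the 23 fits that each left out 1 array, with adjusted p up to 0.225, 0.175 and 0.219.

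**Figure D2:**
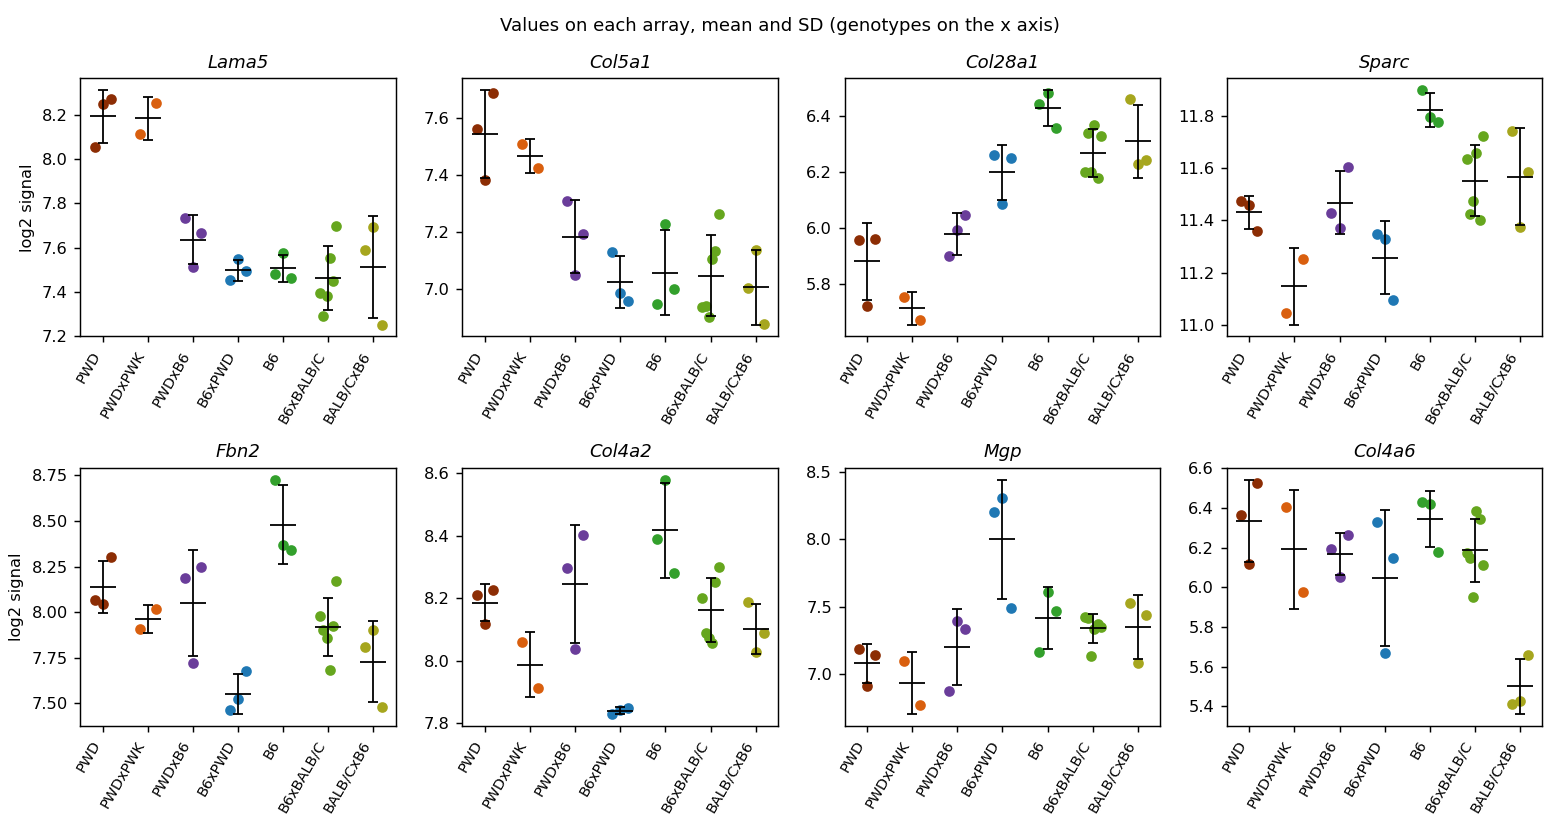
Log2 signal (y axis) on each array (points) by genotype (x axis) for 8 matrix genes, with the mean and SD of each genotype as bars. Fbn2 and Col4a2 are lowest in B6xPWD and Mgp is highest there, Lama5 and Col5a1 are high and Col28a1 low in PWD and PWDxPWK, and Col4a6 is lowest in BALB/CxB6.

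Markers of most somatic cell types moved with these genes. In B6xPWD against mid-parent, 8 of 10 peritubular myoid markers were below 0 (2 lower by the test, median −0.16), 8 of 9 interstitial fibroblast and pericyte markers (2 lower, median −0.27), 11 of 13 Sertoli cell markers (4 lower, median −0.12), 6 of 6 Leydig cell markers (1 lower, median −0.39) and 10 of 10 endothelial markers (4 lower, median −0.35). Germ cell markers lay above the mid-parent in 8 of 10 genes (5 higher, median 0.45) and meiotic prophase markers in 15 of 16 (3 higher, median 0.30). Averaged over each list as a log2 deviation from the all-array mean, endothelial markers ranged from −0.38 to 0.10 in B6xPWD, 0.07 to 0.18 in PWD and 0.17 to 0.44 in B6, and fibroblast and pericyte markers from −0.20 to −0.07, −0.08 to 0.19 and 0.14 to 0.37. Sertoli cell markers ranged from −0.14 to −0.07 in B6xPWD, −0.04 to 0.09 in PWD and 0.10 to 0.23 in B6, and peritubular markers from −0.21 to −0.06, −0.04 to 0.01 and −0.02 to 0.20. Leydig cell markers ranged from −0.41 to −0.10, −0.11 to 0.06 and 0.20 to 0.50, and germ cell markers from 0.10 to 0.26, −0.24 to −0.06 and −0.34 to −0.07. Macrophage markers were below the mid-parent in 7 of 7 genes (none by the test, median −0.12), but their list averages in B6xPWD (−0.12 to 0.18) overlapped with those of PWD (−0.26 to −0.04) and lay below those of B6 (0.22 to 0.54). The part of these cell types in the fall of the matrix genes was not tested.

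**Figure D3:**
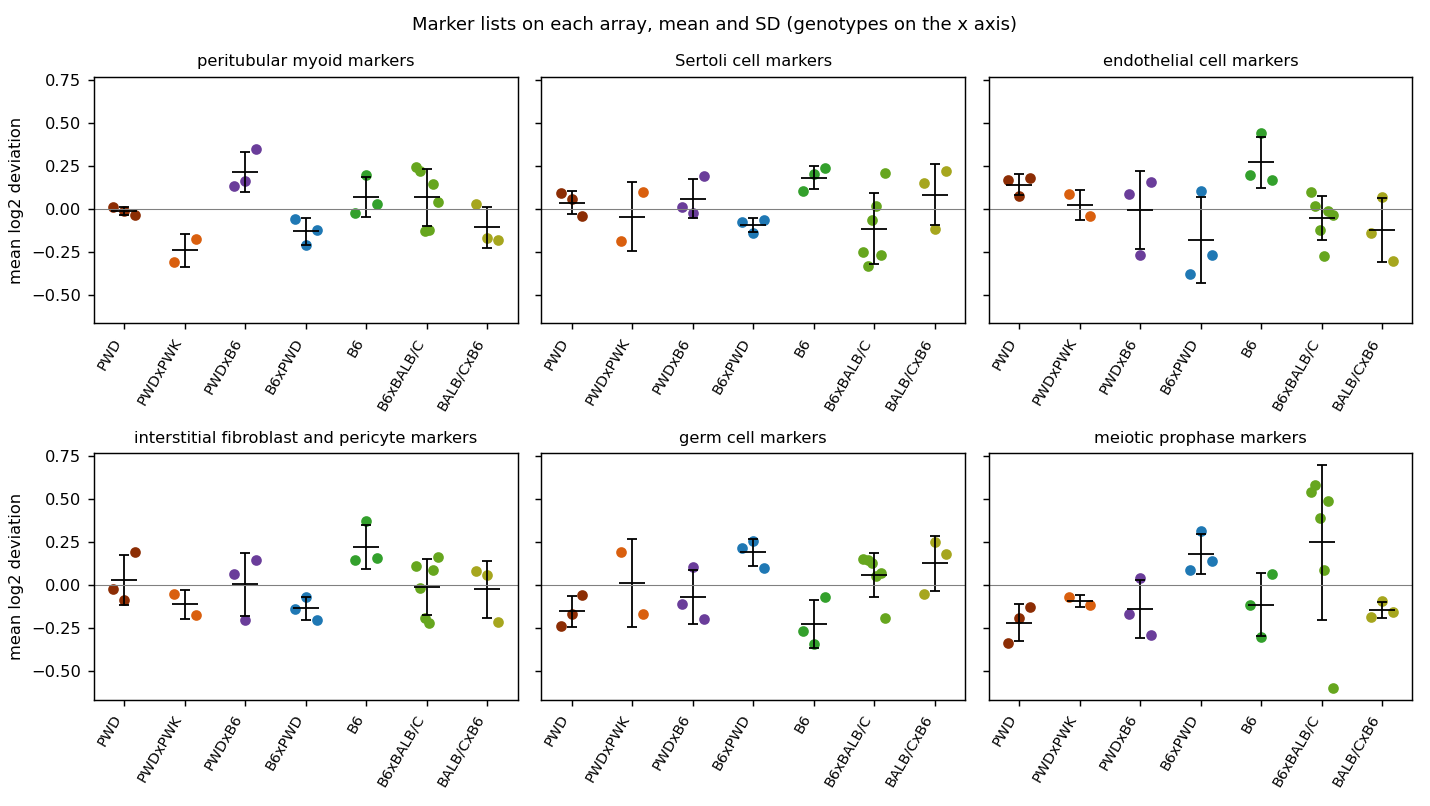
Mean log2 deviation from the all-array mean (y axis) of 6 marker lists on each array (points) by genotype (x axis), with the mean and SD as bars. In B6xPWD the 4 somatic lists average below 0 and the germ cell and meiotic prophase lists above 0.

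The reciprocal hybrid PWDxB6, compared with the same parental arrays, gave no called matrix gene (limma), beside 0.671% of all genes (0.509% higher and 0.163% lower); 16 of the 63, and 1764 of all 14745 genes (12%), had an unadjusted p under 0.05. Of the 63 differences, 45 were below 0, with a median of −0.06, while 53% of all genes were above 0, with a median of 0.01. They were below 0 for 17 of 18 basement membrane genes (median −0.17) and 10 of 11 fibrillar collagens (median −0.03). They were above 0 for 4 of 5 elastic fibre genes and 5 of 8 beaded and short-chain collagens. The PWDxB6 mean lay below both parental means for 26 of the 63 genes, beside 25.3% of all genes. For 2 of the 63, Col14a1 and Col1a2, every PWDxB6 array lay below every parental array, beside 2.06% of all genes. Both hybrid comparisons share the PWD and B6 arrays and so are not independent of each other. PWDxB6 replicate 2 stood apart: its basement membrane genes averaged −0.26 from the all-array mean, against 0.08 and 0.20 on the other PWDxB6 arrays. Without it, 12 of 18 basement membrane genes were below the mid-parent, with a median of −0.08.

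The 2 hybrids were then compared directly, which asks whether the direction of the cross matters. Of the 63 genes, 3 passed, beside 2.83% of all genes (1.33% higher and 1.51% lower; 0.732% and 2.22% after centring on the median autosomal gene). Col4a2 and Col6a2 were higher in PWDxB6 than in B6xPWD and Mgp was lower. The difference was above 0 for 55 of the 63 genes, with a median of 0.20, against 55.9% of all genes, with a median of 0.03. An unadjusted p under 0.05 was found for 19 of the 63 and for 21.1% of all genes. For 50 of the 63 it stayed above 0 after centring on the median autosomal gene. It was above 0 for 16 of 18 basement membrane genes (median 0.24), 10 of 11 fibrillar collagens (median 0.15), all 8 beaded and short-chain collagens (median 0.30) and all 5 elastic fibre genes (median 0.32).

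Col6a2 read 8.05, 7.62 and 8.03 in PWDxB6 and 7.47, 7.27 and 7.44 in B6xPWD. The groups did not overlap, and the difference was 0.51 (SE 0.129, adjusted p = 0.0362). Col4a2 read 8.30, 8.04 and 8.40 in PWDxB6, above the 3 B6xPWD values, a difference of 0.40 (SE 0.103, adjusted p = 0.0373). Mgp read 6.88, 7.39 and 7.33 in PWDxB6, below every B6xPWD array, a difference of −0.80 (SE 0.178, adjusted p = 0.0195), or 1.74-fold. All 3 were also among the 20 genes called in B6xPWD against mid-parent, a comparison that uses the same B6xPWD arrays.

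The calls between the reciprocal hybrids depended on single arrays and on the fit. No matrix gene passed without PWDxB6 replicate 1, PWDxB6 replicate 3 or B6xPWD replicate 2, and Mgp alone passed without B6xPWD replicate 3. Without PWDxB6 replicate 2, 8 genes passed, 7 of them higher in PWDxB6 and 5 of these in the basement membrane class, and without B6xBALB/C replicate 6, 5 passed. Without B6xPWD replicate 1, Mgp missed the threshold (−0.70, adjusted p = 0.0565), as did Col4a2 (0.40, adjusted p = 0.0646). Col4a2 gave an adjusted p of 0.0552 after centring on the median autosomal gene. Fitting only these groups left none of the 3 called, with adjusted p of 0.12 for Col4a2, 0.098 for Col6a2 and 0.0913 for Mgp, and without the dim filter Col4a2 gave 0.0534. Array weights raised the count of called members from 3 to 27. The counts over all genes in these fits are not given here, so the changes cannot be read as particular to matrix genes.

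Markers of most somatic cell types moved with the reciprocal difference, and those of macrophages and germ cells did not. The difference was above 0 for 10 of 10 peritubular myoid markers (2 higher by the test, median 0.35), and their list averaged 0.14 to 0.35 on the PWDxB6 arrays and −0.21 to −0.06 on the B6xPWD arrays. Sertoli cell markers were above 0 in 12 of 13 genes (median 0.08; 7 of 13 after centring on the median autosomal gene), endothelial markers in 8 of 10 (median 0.22), fibroblast and pericyte markers in 7 of 9 (median 0.17) and Leydig cell markers in 5 of 6 (median 0.29), none of them by the test. Macrophage markers were above 0 in 3 of 7. Germ cell markers were below 0 in 8 of 10 genes (1 lower by the test, median −0.25) and meiotic prophase markers in 15 of 16 (1 lower and 1 higher by the test, median −0.16). The part of these cell types in the matrix differences was not tested.

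**Figure D4:**
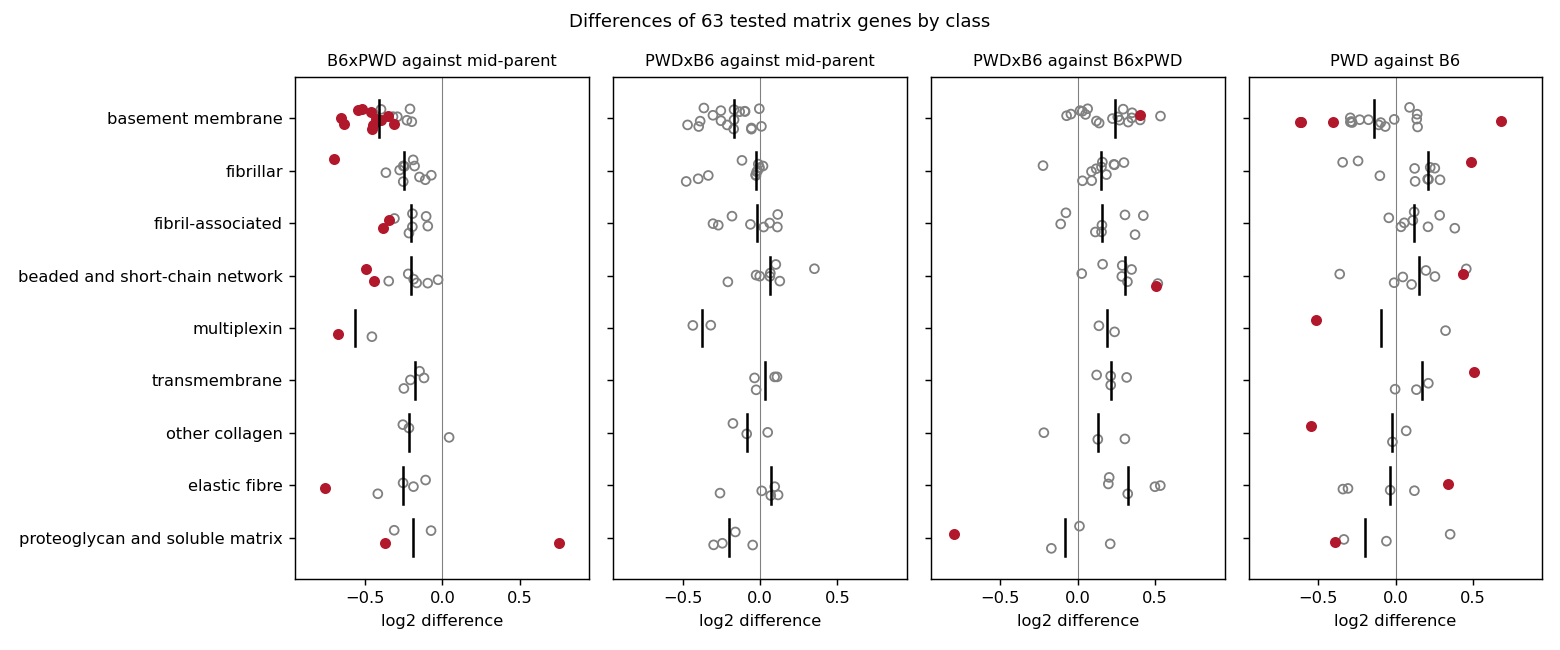
Log2 differences (x axis) of the 63 matrix genes by class (y axis) in 4 comparisons of genotypes, 1 point per gene; filled red points passed the test, open points did not, and black bars are class medians. In B6xPWD against mid-parent all 18 basement membrane genes and all 11 fibrillar collagens lie below 0; in PWDxB6 against B6xPWD 55 of the 63 genes lie above 0.

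The parental strains differed in single matrix genes in both directions. Between PWD and B6, 11 of the 63 genes passed, 5 higher and 6 lower in PWD, beside 18.4% of all genes (10.4% higher and 8.04% lower), so the members' share of 17.5% was near the background. For all 11 the arrays of the strains did not overlap. The calls rest on these same arrays, and the share of all genes without overlap was not counted. A strain difference in transcript level and one in how a strain's sequence hybridises to the array's probes cannot be told apart here. The 5 higher genes were Lama5, Col5a1, Col23a1, Col6a2 and Fbln2, and the 6 lower ones Col28a1, Lama2, Sparc, Nid2, Col15a1 and Lama4. By class, 13 of 18 basement membrane genes were lower in PWD (median difference −0.14) and 8 of 11 fibrillar collagens were higher (median 0.21). Over all genes, 56% were higher in PWD, with a median of 0.04. The difference between the classes was not tested.

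Lama5, the laminin α5 chain of many adult epithelia, read 8.06, 8.25 and 8.27 in PWD and 7.48, 7.57 and 7.46 in B6. It was higher in PWD by 0.68 (SE 0.115, adjusted p = 0.000202), or 1.61-fold. Its signal in both hybrids was near that of B6, at 7.73, 7.51 and 7.66 in PWDxB6 and 7.45, 7.55 and 7.49 in B6xPWD, and not midway between the parents. The B6xPWD difference from mid-parent passed the test, as given above, and the PWDxB6 difference of −0.21 did not (adjusted p = 0.397). Col5a1, a fibrillar chain that nucleates collagen fibrils, read 7.56, 7.38 and 7.69 in PWD against 6.95 to 7.23 in B6, without overlap, a difference of 0.49 (SE 0.114, adjusted p = 0.0046). Col23a1, a transmembrane collagen, differed by 0.51 (SE 0.123, adjusted p = 0.00563).

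Col28a1, a beaded-filament collagen best known from peripheral nerve, read 5.96, 5.72 and 5.96 in PWD and 6.45, 6.48 and 6.36 in B6. It was lower in PWD, by a log2 difference of −0.55 (SE 0.096, adjusted p = 0.000309). The PWDxB6 arrays (5.90, 5.99 and 6.05) were near PWD. The B6xPWD arrays (6.26, 6.09 and 6.25) lay between the parents, their mean 0.04 above mid-parent. The difference between the hybrids was −0.22 and did not pass (adjusted p = 0.196). Nid2, a nidogen that links laminin to collagen IV, read 7.33, 7.16 and 7.50 in PWD and 7.72, 7.73 and 7.75 in B6, a difference of −0.40 (adjusted p = 0.0222). Both hybrids were near PWD for Nid2, at 7.26 to 7.47 and 7.30 to 7.37, below all B6 arrays. Lama2 and Lama4, α chains of muscle and vessel basement membranes, differed by −0.61 (adjusted p = 0.0166) and −0.62 (adjusted p = 0.0373), Col15a1 by −0.51 (adjusted p = 0.0245) and Sparc by −0.39 (adjusted p = 0.0172).

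Lama5, Col28a1, Col5a1 and Col23a1 passed between the strains under every alternative and without any 1 array. The count fell to 6 without PWD replicate 1, PWD replicate 2 or B6 replicate 1, and to 7 without B6 replicate 3. Without PWD replicate 3, Col6a2 (0.32, adjusted p = 0.132) and Sparc (−0.36, adjusted p = 0.0679) missed the threshold, and without B6 replicate 2, Col15a1 (−0.42, adjusted p = 0.101) and Lama4 (−0.58, adjusted p = 0.094) did. Macrophage markers were below 0 in 7 of 7 genes (4 lower in PWD by the test, median −0.58), and their list averaged −0.26 to −0.04 in PWD and 0.22 to 0.54 in B6. Leydig cell markers were below 0 in 5 of 6 genes (2 by the test, median −0.35), with list averages of −0.11 to 0.06 in PWD and 0.20 to 0.50 in B6. Sertoli cell markers were below 0 in 10 of 13 genes (1 by the test, median −0.16) and fibroblast and pericyte markers in 6 of 9 (1 by the test, median −0.35). The part of these cell types in the strain differences was not tested.

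The musculus arrays, PWD and PWDxPWK, were next set against those of B6 and the BALB/C F1s, which adds arrays to the strain comparison but shares the PWD and B6 arrays with it. Of the 63 genes, 19 passed, 12 higher and 7 lower on the musculus side, beside 28.7% of all genes (15.9% higher and 12.7% lower), so the members' share was near the background. Of the 11 genes called between PWD and B6, 10 passed here too, Lama4 being the exception. Lama5 was higher by 0.69 (SE 0.0771, adjusted p = 3.94e-07): its PWDxPWK arrays read 8.11 and 8.25, and the B6xBALB/C and BALB/CxB6 arrays lay between 7.25 and 7.70, with no overlap between the sides. Col28a1 was lower, with a difference of −0.54 (SE 0.0645, adjusted p = 1.12e-06), with 5.75 and 5.67 in PWDxPWK and 6.18 to 6.46 in the BALB/C F1s, again without overlap. Col5a1 was higher by 0.47 (SE 0.0768, adjusted p = 6.86e-05), also without overlap.

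Of the fibrillar collagens, 4 of 11 were higher on the musculus side (Col5a1, Col24a1, Col11a2 and Col5a2) and none was lower by the test. Of the basement membrane genes, Lama5, Lama3 and Lamc1 were higher and Nid2 and Lama2 lower. Dcn, the small proteoglycan decorin, was higher by 0.52. Lama5, Col28a1, Col5a1, Nid2, Sparc, Fbln2 and Col23a1 passed under every alternative and without any 1 array. The other 12 missed the threshold without at least 1 array. Without PWDxPWK replicate 2, Dcn (adjusted p = 0.0973), Lama3 (0.143), Mgp (0.172), Col6a3 (0.115) and Col15a1 (0.0592) did so. Without PWDxPWK replicate 1, Col24a1 (0.139), Col11a2 (0.156), Col8a1 (0.0967), Col6a2 (0.0745) and Lama2 (0.149) did so. Lamc1 and Col5a2 missed it in 15 and 8 of the 23 fits, with adjusted p up to 0.258 and 0.412.

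In the comparisons made within a subspecies, at most 1 matrix gene passed, but the BALB/C F1s were not tested against inbred B6. Averaged as log2 deviations from the all-array mean, basement membrane genes were at 0.27 in B6, −0.04 in B6xBALB/C and −0.10 in BALB/CxB6. The fibrillar collagens were at 0.07, −0.05 and −0.06. Between the reciprocal F1s B6xBALB/C and BALB/CxB6, 1 of the 63 genes passed, and it was higher in B6xBALB/C, beside 0.441% of all genes (0.359% higher and 0.0814% lower). This was Col4a6, which encodes the α6 chain of a collagen IV found mainly around smooth muscle and in some epithelia, and lies on the X chromosome, which a male receives from his mother. Its BALB/CxB6 arrays read 5.41, 5.43 and 5.66, and the 6 B6xBALB/C arrays had a lowest value of 5.95 and a highest of 6.39. The groups did not overlap, and the difference was 0.69 (SE 0.133, adjusted p = 0.0386), or 1.61-fold. Every array of the other 5 genotypes was above the BALB/CxB6 arrays, the lowest of them a B6xPWD array at 5.67. Its neighbour Col4a5 gave a difference of 0.05 (adjusted p = 0.876); whether the 2 genes differed in their response was not tested. A difference in transcript level and one in how the BALB/C and B6 sequences hybridise to the probes cannot be told apart. In the same comparison the difference was above 0 for 10 of 10 peritubular myoid markers (median 0.14), 7 of 10 endothelial markers (median 0.09) and 10 of 16 meiotic prophase markers (median 0.25). It was below 0 for 12 of 13 Sertoli cell markers (median −0.23) and 7 of 10 germ cell markers (median −0.11). None of these markers passed the test, and their part in the result was not tested.

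The call for Col4a6 was lost in 8 of the 23 fits that left out 1 array (PWD replicate 1, PWDxB6 replicate 3, B6xBALB/C replicates 1, 2 or 5, or any BALB/CxB6 array), while the difference over all alternatives ranged from 0.59 to 0.78 and the adjusted p reached 0.203. It was also lost when only these groups were fitted and when B6xBALB/C was limited to replicates 4 to 6. PWDxPWK against PWD gave no called matrix gene (limma), beside 0.00678% of all genes, and 4 of the 63 had an unadjusted p under 0.05, beside 2.84% of all genes. There 57 of 63 differences were below 0 (median −0.15), with 2 PWDxPWK arrays, while 50% of all genes were above 0. The peritubular marker list averaged −0.31 and −0.17 on these arrays and −0.04 to 0.01 in PWD, and its part was not tested.

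To set basement membrane against fibrillar genes on each array, the log2 deviations of the members of each class from their all-array means were averaged and the fibrillar average was subtracted. The resulting difference is a description of the chosen genes, and the classes differ in signal level as given above. It was highest in B6, at 0.20 ± 0.079 (SD, n = 3; arrays 0.11 to 0.26), and the 3 PWD arrays lay between −0.09 and 0.00 without overlap with B6. It was 0.01 ± 0.174 (n = 3) in PWDxB6, −0.07 ± 0.138 (n = 3) in B6xPWD, −0.10 ± 0.152 (n = 2) in PWDxPWK, 0.01 ± 0.0996 (n = 6) in B6xBALB/C and −0.04 ± 0.0191 (n = 3) in BALB/CxB6. The B6 range overlapped with those of PWDxB6 (highest array 0.18) and B6xBALB/C (highest array 0.13). The ranges of the other genotypes overlapped with each other.

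The basement membrane average was 0.27 in B6 and 0.14 in PWD, whose ranges overlapped, and −0.20 in B6xPWD, whose arrays (−0.28 to −0.15) lay below all parental arrays. The other F1s also averaged below both inbred strains, at 0.01 in PWDxB6, −0.05 in PWDxPWK, −0.04 in B6xBALB/C and −0.10 in BALB/CxB6. The lowest BALB/CxB6 array (−0.27) lay within the B6xPWD range. The fibrillar average was 0.18 in PWD, 0.07 in B6 and −0.13 in B6xPWD, whose highest array (0.02) lay within the B6 range. Both classes were therefore low in B6xPWD, and the difference between them there overlapped with that of the PWD and PWDxB6 arrays.

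**Figure D5:**
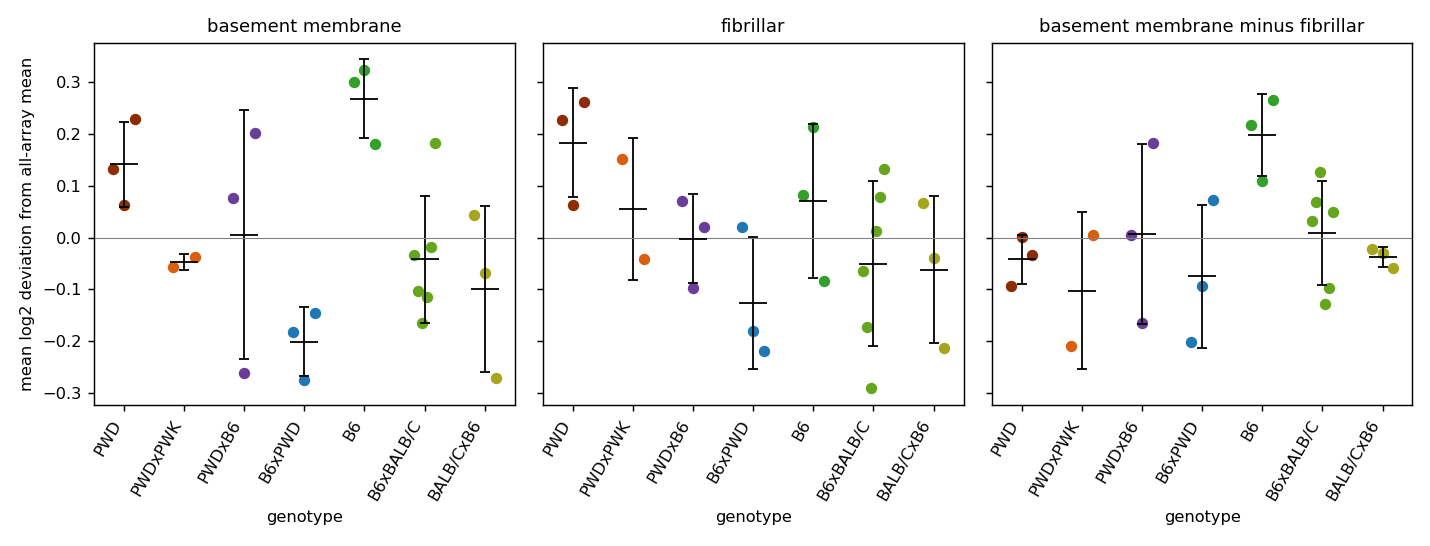
Mean log2 deviation from the all-array mean (y axis) of the 18 basement membrane genes, the 11 fibrillar collagens and their difference on each array (points) by genotype (x axis), with the mean and SD as bars. The basement membrane average is lowest in B6xPWD, and the difference is highest in B6.

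Genes that make, process and sense the matrix were examined by lists that hold none of the members. These lists were read on the same arrays and were chosen with earlier results of these data known. The counts below stand beside 6.69% of all genes lower and 7.79% higher in B6xPWD against mid-parent (4.18% and 9.3% after centring on the median autosomal gene). In that comparison, 3 of 15 genes of collagen biosynthesis and secretion were lower and none higher, 9 of the 15 differences being below 0. P4ha2, a prolyl hydroxylase subunit, gave −0.32, Plod2, a lysyl hydroxylase, −0.39 and Crtap, part of the prolyl 3-hydroxylation complex, −0.35. Of 11 genes for collagen processing and cross-linking, 5 were lower and 10 were below 0. They include Bmp1, the procollagen C-proteinase (−0.51, adjusted p = 0.01), and Tgm2, a transglutaminase (−0.54, adjusted p = 0.00595). Tgm2 and Loxl1, a lysyl oxidase-like enzyme, were also higher in PWDxB6 than in B6xPWD, by 0.64 (adjusted p = 0.0129) and 0.55 (adjusted p = 0.0454).

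Among matrix receptors 6 of 24 were lower and none higher. Itga5, the fibronectin receptor's α chain, gave −0.60 (adjusted p = 0.004), Itga10 −0.37 and the collagen receptor Ddr1 −0.45. Of 18 proteases and inhibitors, 4 were lower, all of the Adamts family, with Adamts5 at −0.77, Adamts12 at −0.45 and Adamts10 at −0.44. Of 19 genes of TGF-beta signalling, which drives matrix production in many stromal cells, 6 were lower and 1, the receptor gene Tgfbr1, was higher (0.31). Tgfb1, the ligand, gave −0.81 (SE 0.143, adjusted p = 0.002), Ltbp4, a latent TGF-beta binding protein, gave −0.70, and Ltbp2, a member of the same family that does not bind latent TGF-beta, gave −0.50. Tgfb1 was also higher in PWDxB6 than in B6xPWD, by 0.88 (adjusted p = 0.0074).

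Of 26 further basement membrane and stromal matrix genes, 8 were lower and 1, Fmod (fibromodulin), was higher in B6xPWD, and 24 were below 0. Hspg2, which encodes perlecan of the basement membrane, gave −0.61, Fras1, a basement membrane protein of developing epithelia, −0.62 and Vcan, the proteoglycan versican, −0.71. The medians of these 6 lists lay between −0.12 and −0.32, against −0.03 over all genes, and stayed below 0 under quantile normalization and under centring on the median autosomal gene. The counts moved more: after centring, 1 gene of collagen biosynthesis and 3 matrix receptors were lower, and under quantile normalization 5 of the 26 further matrix genes were lower and no TGF-beta gene was higher.

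Of the 63 genes, 32 passed in at least 1 of the 7 comparisons of genotypes and 31 in none, and the matching share of all genes was not counted. Those that passed in none include the fibrillar genes Col1a2, Col2a1, Col3a1, Col5a3, Col11a1 and Col27a1, the basement membrane genes Lamb2, Lamb3, Nid1 and Col4a5, and Fn1, Eln, Fbln1 and Fbln5. Col20a1, a fibril-associated collagen, passed the F test (adjusted p = 0.0439) but none of these comparisons. Col18a1, the multiplexin whose end fragment is endostatin, read 9.25, 9.16 and 8.97 in B6xPWD, against 9.58 to 9.87 in PWD and 9.18 to 9.60 in B6. Its arrays overlapped with those of B6, and its difference from mid-parent was −0.46 (adjusted p = 0.0845). Eln, the elastin gene, was among the uneven ones: its PWDxB6 arrays (9.54, 9.73 and 9.78) lay above its B6xPWD arrays (9.42, 9.08 and 8.95), but the difference of 0.53 did not pass (adjusted p = 0.129). Lum, Col10a1 and Col12a1 were not tested. Lum, the proteoglycan lumican of collagen-rich stroma, lay between 3.25 and 5.03 on all arrays, its highest values being a PWD array at 5.03 and a PWDxPWK array at 4.77.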

How the data were processed

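The authors deposited 1 table of log2 values for 25690 probe sets on 23 arrays. That the values are on a log2 scale was read from their range (1.17 to 13.96); the method of background correction and normalization is not given in the sources used here. Total RNA was biotin-labelled, per the labels' protocols; the labels and the series' design text name different Affymetrix labelling kits.

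Gene names came from the platform's probe annotation, in which 20777 probe sets had 1 symbol, 232 had several and 4681 had none listed. For each of 19661 genes the probe set with the highest mean was used. The dimmest 25% of genes by mean were dropped, and 14745 remained. The 66 members matched the reference gene table by Entrez ID; Fbn1 and Col21a1 were not matched to a probe set and were not analysed here. In R 4.3.3, limma 3.58.1 (lmFit, contrasts, eBayes) estimated a mean for each of the 7 genotypes from the 23 arrays together, which left 16 degrees of freedom for the spread, with Benjamini-Hochberg adjustment over all 14745 genes and a threshold of 0.05. The functions were tested on simulated data. The mid-parent value is the mean of the PWD and B6 means. Figures were drawn with matplotlib 3.10.9.

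The members, their classes, the gene and marker lists and the rule for named genes were chosen with earlier results of these data known. Named members were those past the threshold in any of the 7 comparisons of genotypes (up to 6 rises and 6 falls each, with the other called members listed more briefly) and, per class, the 3 with the smallest adjusted p of the F test. From each pathway list up to 3 genes with the smallest p in the hybrid comparisons were named; Tgfbr1, Fmod and the members named as passing in no comparison were chosen after their values were seen. Alternatives tried were omitting the dim filter or raising it to 40%, the mean of a gene's probe sets, quantile normalization, centring on the median autosomal gene, array weights, eBayes with trend and robust variances, the replicate number as a block, fits of only the groups compared, B6xBALB/C replicates 1 to 3 or 4 to 6 only, and leaving out each array in turn. For arrays the number of arrays limits the precision. Levels of different genes were not set against each other, apart from the signal levels of the basement membrane and fibrillar classes.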

Additional observations from a re-analysis of the deposited data

Results flagged for a closer look

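In 6 of the 42 sets of B6xBALB/C values examined (39 named members and 3 class scores), 1 of the 6 arrays lay far from the others by Dixon's criterion, its gap to the nearest array being more than 0.625 of the whole range; chance alone does this in about 1 set in 20. Replicate 6 was the highest for Lama1 (9.12, the others 8.59 to 8.79), Lamc1 (9.23, the others 8.65 to 8.84) and Col15a1 (7.11, the others 6.73 to 6.87). Replicate 3 was the lowest for Col14a1 (6.04, the others 6.30 to 6.41), Mgp (7.13, the others 7.34 to 7.42) and Col26a1 (6.86, the others 7.07 to 7.19). On replicate 6 the meiotic prophase markers averaged −0.60 from the all-array mean, against 0.09 to 0.59 on the other B6xBALB/C arrays. The part of cell makeup in these values was not tested.

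For 3 genes the departure from the mid-parent level differed between the reciprocal hybrids by the test of the difference itself: it was higher in PWDxB6 than in B6xPWD for Col4a2 (0.40) and Col6a2 (0.51) and lower for Mgp (−0.80). As given in the report, each of these calls was lost without 1 or another of the hybrid arrays.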

How the results depend on the processing

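No called difference changed sign under any alternative listed in the processing section. The counts of called members kept within 1.5 times of those reported under a dim filter that was absent or stricter, the mean of a gene's probe sets, quantile normalization, centring on the median autosomal gene, and eBayes with trend and robust variances. Array weights raised the count between the reciprocal hybrids from 3 to 27, that of B6xPWD against mid-parent from 20 to 42, that of B6xBALB/C against BALB/CxB6 from 1 to 2 and that of any difference from 27 to 45. Counts over all genes under array weights are not given here, so these rises cannot be read as particular to matrix genes. Fitting only the groups compared gave 0 between the reciprocal hybrids and 0 between the BALB/C F1s, as did B6xBALB/C replicates 4 to 6 only for the latter; fewer arrays then estimate the spread.

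Leaving out each array in turn gave 0 to 8 members between the reciprocal hybrids, 0 to 0 for PWDxB6 against mid-parent, 5 to 26 for B6xPWD against mid-parent, 6 to 12 for PWD against B6, 0 to 1 for B6xBALB/C against BALB/CxB6, 0 to 0 for PWDxPWK against PWD, 13 to 21 for the musculus against the other arrays and 21 to 35 for any difference. The basement membrane minus fibrillar score then ranged from −0.0634 to −0.0204 in PWD, 0.175 to 0.245 in B6, −0.0717 to 0.0861 in PWDxB6, −0.144 to −0.0202 in B6xPWD, −0.209 to −0.00395 in PWDxPWK, −0.00919 to 0.0302 in B6xBALB/C and −0.0464 to −0.0249 in BALB/CxB6.

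With the replicate number as a block, on replicates 1 to 3, 8 members were called between the reciprocal hybrids (7 higher, 1 lower) in place of 3. The other counts were 0 for PWDxB6 and 26 for B6xPWD against mid-parent, 12 for PWD against B6, 1 for the BALB/C F1s, 0 for PWDxPWK against PWD, 23 for the musculus side and 35 for any difference. The numbers do not pair the samples: over 57 pairs of arrays with the same number in different genotypes, deviations from the group means correlated at −0.323 to 0.443 (median 0.0128), and 17 pairs were above 0.1. The number of arrays, 2 to 6 a genotype, limits every value here.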
